A study of Mus musculus with 19 samples.

Results

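Levels of 8 haematopoietic transcription regulators were followed across 6 groups of sorted mouse bone marrow progenitors. The regulators are the GATA factors Gata1 and Gata2, the GATA cofactor Zfpm1 (FOG-1), the erythroid factor Klf1, the repressor Gfi1b, the complex partners Tal1 and Lmo2, and the p45 subunit Nfe2. They are 8 of the 15781 genes that the exon arrays measured, and were chosen by name through the probe sets (groups of probes for an exon or part of an exon) annotated to that gene alone. The regulators and the gene lists used below were chosen with earlier results of these data known, so counts among them are descriptive. The 8 genes carry 74 such probe sets, from 5 for Nfe2 to 16 for Zfpm1, and none of the 74 is shared with another gene. A level is the mean log2 intensity of a gene's probe sets on an array, so a difference of 1 is a 2-fold difference in intensity.

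The 19 arrays hold 2 sorted populations, CMP (common myeloid progenitors) and GMP (progenitors of granulocytes and monocytes). Wild-type mice gave 3 CMP and 4 GMP arrays, and Dnmt3a-/- mice gave 3 CMP and 3 GMP arrays, all on C57Bl/6J. PR+/- mice gave 2 GMP arrays and PR+/-, Dnmt3a-/- mice gave 4. PR stands for PML-RARA here, as the series' title has it, although no array label spells the fusion out. The series concerns the need of promyelocytic leukaemia for Dnmt3a. For the PR+/- arrays the labels give GMP in the title alone and no strain, and the promoter of the fusion, the mode of Dnmt3a deletion and the age of the mice are not stated in the sources used here. No label ties arrays to individual mice, so p-values measure the spread between these samples, which may be technical. PR+/- arrays are labelled in another style than the rest, so PR+/- and a separate run of arrays cannot be told apart. The other arrays carry a number in their title, and every wild-type number lies below every Dnmt3a-/- number. No label says what the numbers stand for, so Dnmt3a genotype and a possible run behind them cannot be told apart either.

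Dnmt3a, the targeted gene, had levels between 5.82 and 6.49 on the 10 arrays labelled Dnmt3a-/- and between 7.07 and 7.65 on the other 9. Of its 31 probe sets, 12 were lower on all 10 deleted arrays than on all 9 others. Fcgr3, a receptor used to gate GMP, rose by 2.14 ± 0.45 (SE) from wild-type CMP to wild-type GMP (limma adjusted p = 0.0165). Its level was 9.60 to 9.88 on the PR+/- arrays and 8.60 to 9.71 on the PR+/- Dnmt3a-/- arrays, against 5.72 to 7.80 in wild-type CMP. Of the 6 sort markers measured, Fcgr3 among them, 2 passed as higher from wild-type CMP to GMP and 2 as lower. Over all genes 4.3% passed in either direction. Genes of the immediate early and heat shock responses had a mean level of 8.95 on wild-type CMP replicate 1, of 7.91 and 7.95 on wild-type GMP replicates 1 and 2, and of 8.79 and 8.74 on PR+/- Dnmt3a-/- replicates 1 and 2. It lay between 6.33 and 7.51 on the other arrays. The 2 measured Y-linked genes were low (2.54 to 3.25) on the 6 Dnmt3a-/- arrays and on 3 others (wild-type CMP replicate 3, wild-type GMP replicate 4 and PR+/- Dnmt3a-/- replicate 2), so sex moves with Dnmt3a genotype in part.

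GATA factors bind a short DNA motif and switch on genes of several blood lineages. Gata2 acts in stem and early progenitor cells and in mast cells and basophils. Gata1 takes over in erythroid cells and megakaryocytes, with Zfpm1 as its main partner there, and also acts in eosinophils. Tal1 and Lmo2 join GATA factors in a complex on erythroid and megakaryocytic genes, Klf1 drives the red cell program, Gfi1b represses target genes in both lineages, and Nfe2 with a small Maf protein is needed for platelet release. CMP can give rise to all of these lineages, whereas GMP are biased to granulocytes and monocytes.

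The promoters of the members were read from RefSeq (GRCm38.p6), as the 250 bases before each annotated start. Windows were at hand for 6 members, 8 windows in all, and none for Lmo2 and Nfe2. Gata1 and Gata2 are printed first, since they were the members that differed between Dnmt3a-/- and wild-type GMP. Capitals mark CpG, the dinucleotide that Dnmt3a methylates; methylation itself was not measured on these arrays.
Gata1, chrX:7967911-7968160, minus strand: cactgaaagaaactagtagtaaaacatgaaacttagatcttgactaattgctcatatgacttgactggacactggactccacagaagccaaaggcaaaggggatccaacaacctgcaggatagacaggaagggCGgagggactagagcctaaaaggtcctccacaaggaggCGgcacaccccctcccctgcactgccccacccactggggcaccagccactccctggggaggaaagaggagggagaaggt
Gata2, chr6:88193641-88193890, plus strand: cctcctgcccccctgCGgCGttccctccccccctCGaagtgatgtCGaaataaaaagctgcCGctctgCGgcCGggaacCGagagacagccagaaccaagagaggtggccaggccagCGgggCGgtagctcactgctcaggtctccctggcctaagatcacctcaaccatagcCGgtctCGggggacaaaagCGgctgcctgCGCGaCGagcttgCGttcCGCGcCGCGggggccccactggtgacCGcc
The Gata1 window held 2 CpG and the Gata2 window 22, with 24 in a second Gata2 window. The other windows held 3 (Klf1), 5 (Gfi1b), 6 and 16 (both Tal1 windows) and 28 (Zfpm1), against a median of 6 and quartiles of 2 and 16 over 32851 mouse windows of the same length. The Gata1 window thus lies at the lower quartile and both Gata2 windows above the upper one.

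The motif letters AGATAA or TGATAA, and with a last G also AGATAG or TGATAG, which GATA factors can bind, were searched on both strands. They occurred in 3 of the 8 windows, once in each, against 26.5% of all windows. These 3 are printed with the match in capitals to show where it lies. The windows of Gata1, Gata2 and Zfpm1, which fell from CMP to GMP as well, held none.
Klf1, chr8:84901732-84901981, plus strand: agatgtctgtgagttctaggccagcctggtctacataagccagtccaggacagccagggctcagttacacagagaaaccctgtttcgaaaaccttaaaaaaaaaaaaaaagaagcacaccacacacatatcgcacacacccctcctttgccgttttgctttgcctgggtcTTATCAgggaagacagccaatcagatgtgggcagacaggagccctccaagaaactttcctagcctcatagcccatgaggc
Gfi1b, chr2:28621983-28622232, minus strand: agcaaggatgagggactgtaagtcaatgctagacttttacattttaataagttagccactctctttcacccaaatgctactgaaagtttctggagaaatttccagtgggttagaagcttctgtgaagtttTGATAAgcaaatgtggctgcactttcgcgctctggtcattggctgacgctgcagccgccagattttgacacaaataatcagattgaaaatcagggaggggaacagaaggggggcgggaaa
Tal1, chr4:115056176-115056425, plus strand: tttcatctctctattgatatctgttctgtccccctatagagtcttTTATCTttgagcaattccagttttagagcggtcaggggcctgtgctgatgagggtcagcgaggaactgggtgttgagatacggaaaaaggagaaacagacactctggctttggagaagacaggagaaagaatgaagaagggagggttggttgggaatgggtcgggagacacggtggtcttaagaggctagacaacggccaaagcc
The match began 80 bases before the start in Klf1, 120 bases before it in Gfi1b and 205 bases before it in Tal1. In Klf1 and Tal1 it lies on the opposite strand, so that it reads TTATCA and TTATCT here. A match describes these letters and does not show that a factor binds there.

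In wild-type mice 6 of the 8 regulators were lower in GMP than in CMP, and none was higher. Gfi1b, Klf1 and Gata1 fell most, each by over 5-fold, followed by Zfpm1, Gata2 and Tal1, while Lmo2 and Nfe2 did not pass the test. Of all genes, 4.3% passed in this comparison and 2.43% passed as lower. The median difference was -1.55 over the 8 members and 0.04 over all genes. Because the arrays measure populations, fewer cells of a type and less RNA per cell cannot be told apart in this or any later comparison.

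Gata1 had levels of 8.03, 7.64 and 6.77 in wild-type CMP and of 5.42, 5.05, 5.02 and 4.91 in wild-type GMP. The groups did not overlap, and the difference was -2.38 ± 0.24 (SE; 5.21-fold lower, limma adjusted p = 0.000229). The gene mean in GMP lay within the range of 15 genes of other tissues (mean levels 1.92 to 5.25, median 4.14) on all arrays but replicate 1, though single Gata1 probe sets lay above it, such as 1 that read 6.31, 6.61, 6.06 and 5.48. Gata2 had levels of 9.03, 8.67 and 8.51 in CMP and of 7.28, 7.96, 7.01 and 6.87 in GMP. It fell by 1.45 ± 0.24 (2.74-fold, adjusted p = 0.00385), with no overlap between the groups. Zfpm1 had levels of 7.77, 7.43 and 7.34 in CMP and of 5.83, 6.23, 5.69 and 5.70 in GMP. It fell by 1.65 ± 0.16 (3.14-fold, adjusted p = 0.000229), again with no overlap.

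Klf1 had levels of 7.97, 6.91 and 6.74 in wild-type CMP and of 4.13, 5.81, 4.80 and 4.37 in wild-type GMP. All GMP arrays lay below all CMP arrays, and the difference was -2.43 ± 0.40 (5.38-fold lower, adjusted p = 0.00379). On 3 of the 4 GMP arrays Klf1 was within the range of the genes of other tissues. Gfi1b had levels of 9.33, 7.68 and 7.81 in CMP and of 6.19, 5.87, 5.45 and 5.66 in GMP, a fall of 2.48 ± 0.33 (5.59-fold, adjusted p = 0.00116). The groups were apart, and CMP replicate 1 stood well above the other 2 CMP arrays for both Gfi1b and Klf1. On that array the mean level of 20 erythroid genes was 7.23, against 6.02 and 5.78 on the others, and its immediate early level was also the highest; their part in the result was not tested. Without the 3 arrays titled 21986 to 21988, which include it, both Klf1 and Gfi1b still passed.

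Tal1 had levels of 7.68, 7.51 and 7.17 in wild-type CMP and of 6.94, 6.43, 6.59 and 6.58 in wild-type GMP. It fell by 0.81 ± 0.17 (1.76-fold, adjusted p = 0.0158), and the groups were apart. The call was lost without CMP replicate 1 (adjusted p = 0.0835), without CMP replicate 2 (0.0576), with the median of the probe sets (0.12) and with those 2 groups alone in the fit (0.0662). Its complex partner Lmo2 had levels of 9.29, 9.01 and 8.99 in CMP and of 8.95, 9.07, 8.79 and 8.88 in GMP. These overlap, with a difference of -0.17 ± 0.12 (adjusted p = 0.538). Nfe2 had levels of 8.79, 8.71 and 8.67 in CMP and of 8.63, 8.46, 8.61 and 8.41 in GMP. The groups did not overlap, but the difference of -0.20 ± 0.11 did not pass (adjusted p = 0.438); 6.65% of all genes had all GMP arrays below all CMP arrays.

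**Figure D1:**
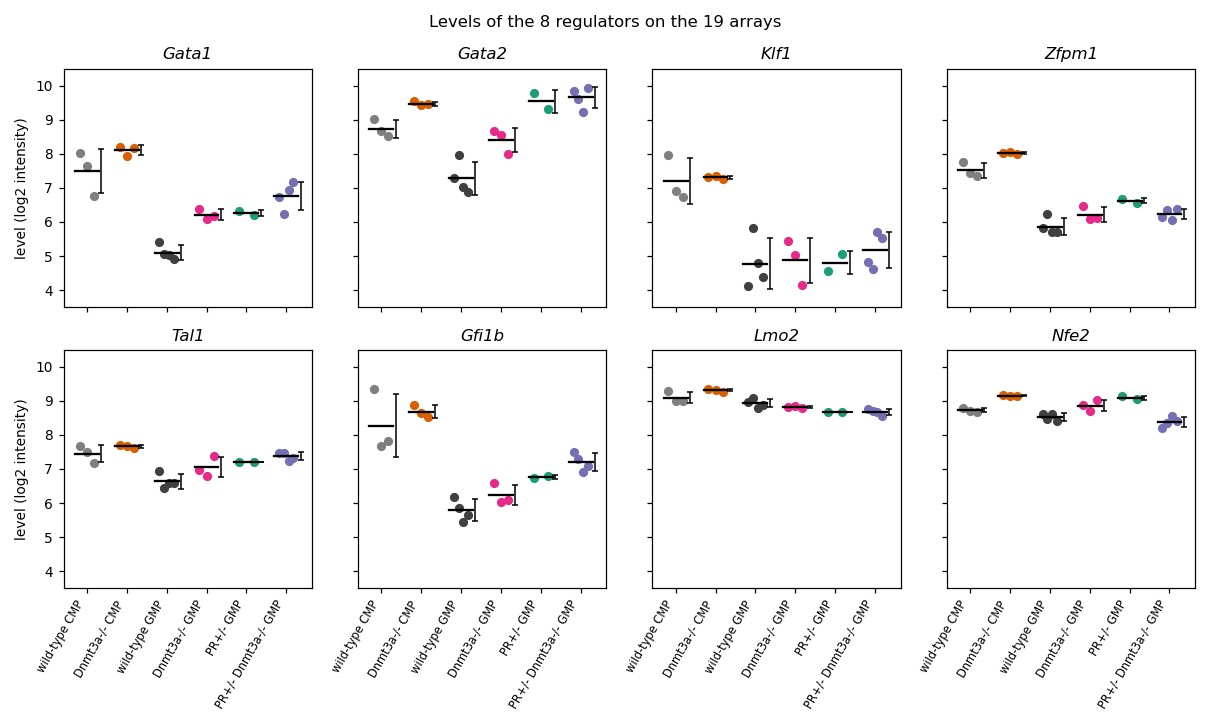
Level of each regulator (vertical axis, log2 intensity) on each of the 19 arrays (points) by group, with the group mean (bar) and SD (bracket). In wild-type mice the GMP points of Gata1 (4.91 to 5.42) sit below the CMP points (6.77 to 8.03), whereas those of Lmo2 overlap.

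In Dnmt3a-/- mice the step from CMP to GMP again lowered 6 of the 8, namely Gata1, Gata2, Klf1, Zfpm1, Gfi1b and Lmo2, against 10.1% of all genes passed and 4.58% passed as lower. Gata1 went from 8.20, 7.95 and 8.17 to 6.39, 6.09 and 6.16, a difference of -1.89 ± 0.25 (adjusted p = 0.000373). Zfpm1 went from 8.02, 8.06 and 7.99 to 6.46, 6.08 and 6.10, a difference of -1.81 ± 0.17 (adjusted p = 6.21e-05). Both were apart on all arrays, as were the other 6 members. Klf1 went from 7.33, 7.35 and 7.27 to 5.43, 5.03 and 4.15, and fell by 2.45 ± 0.43 (adjusted p = 0.00226). Gfi1b went from 8.88, 8.63 and 8.53 to 6.59, 6.03 and 6.10, and fell by 2.44 ± 0.35 (adjusted p = 0.000623). Both were thus lower on all 3 GMP arrays than on any CMP array, as were 15.1% of all genes.

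Gata2 went from 9.54, 9.42 and 9.46 in Dnmt3a-/- CMP to 8.67, 8.55 and 7.998 in Dnmt3a-/- GMP, a difference of -1.07 ± 0.26 (adjusted p = 0.0178). Its call was lost without CMP replicate 1 (adjusted p = 0.0613), CMP replicate 3 (0.056) or GMP replicate 3 (0.0825), and with the median of the probe sets (0.0664). Lmo2 went from 9.34, 9.32 and 9.27 to 8.82, 8.85 and 8.80. The groups were apart and the difference was -0.49 ± 0.13 (1.40-fold lower, adjusted p = 0.0252), but leaving out any of the 6 arrays ended the call (adjusted p = 0.066 to 0.0896). Tal1 went from 7.69, 7.68 and 7.61 to 6.97, 6.81 and 7.37, a difference of -0.61 ± 0.18 that lay just over the threshold (adjusted p = 0.0508). It passed with adjacent title numbers of the Dnmt3a-/- arrays as a random block (adjusted p = 0.0274). Nfe2 went from 9.16, 9.16 and 9.14 to 8.87, 8.70 and 9.01, a difference of -0.29 ± 0.12 (adjusted p = 0.191). All 8 members, Tal1 and Nfe2 included, passed with quantile normalization or array weights (Nfe2 adjusted p = 0.0282 and 0.00477).

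Genes that act downstream of these factors were counted in both genotypes. Over all genes, 4.3% passed between CMP and GMP in wild type (2.43% as lower) and 10.1% in Dnmt3a-/- mice (4.58% as lower). Of 20 erythroid genes measured, 7 were lower in wild-type GMP than CMP and none was higher, with a list median of -1.12. Aqp1, a water channel of red cells, fell by 3.23 ± 0.38 (adjusted p = 0.000686) and Ermap, an erythroid membrane protein, by 2.85 ± 0.42 (adjusted p = 0.00204). Of 17 megakaryocyte genes, 9 were lower and none higher, with a median of -0.98; Gp5, a subunit of the platelet von Willebrand receptor, fell by 2.41 ± 0.45 (adjusted p = 0.00773). In Dnmt3a-/- mice 10 of 20 erythroid genes were lower and 1 was higher, and 13 of 17 megakaryocyte genes were lower. Lists of eosinophil and of basophil and mast cell genes, lineages that also use Gata1 and Gata2, held genes that were higher in GMP. Of 6 eosinophil genes, 4 were higher in wild-type GMP and 5 in Dnmt3a-/- GMP, led in wild type by Prg2 (major basic protein; 4.47 ± 0.70, adjusted p = 0.00271). Among the 15 genes of basophils and mast cells, 5 were higher and 1 lower in wild-type GMP; Prss34, a basophil protease, rose by 4.11 ± 0.48 (adjusted p = 0.000686).

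Of 29 cofactors and related regulators, 4 were lower and 1 higher in wild-type GMP, and 5 were lower and 4 higher in Dnmt3a-/- GMP. Over all genes 4.3% and 10.1% passed in either direction. Bcl11a, a repressor of foetal globin genes, fell by 1.30 ± 0.15 in wild type (adjusted p = 0.000643). Cbfa2t3, a corepressor that joins the Tal1 complex, fell by 1.01 ± 0.12 (adjusted p = 0.000754), and Ldb1, which links Lmo2 to its partners, fell by 0.89 ± 0.16 (adjusted p = 0.00628). Gfi1, the relative of Gfi1b that acts in granulocyte precursors, rose by 2.40 ± 0.22 from Dnmt3a-/- CMP to GMP (adjusted p = 4.48e-05).

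**Figure D2:**
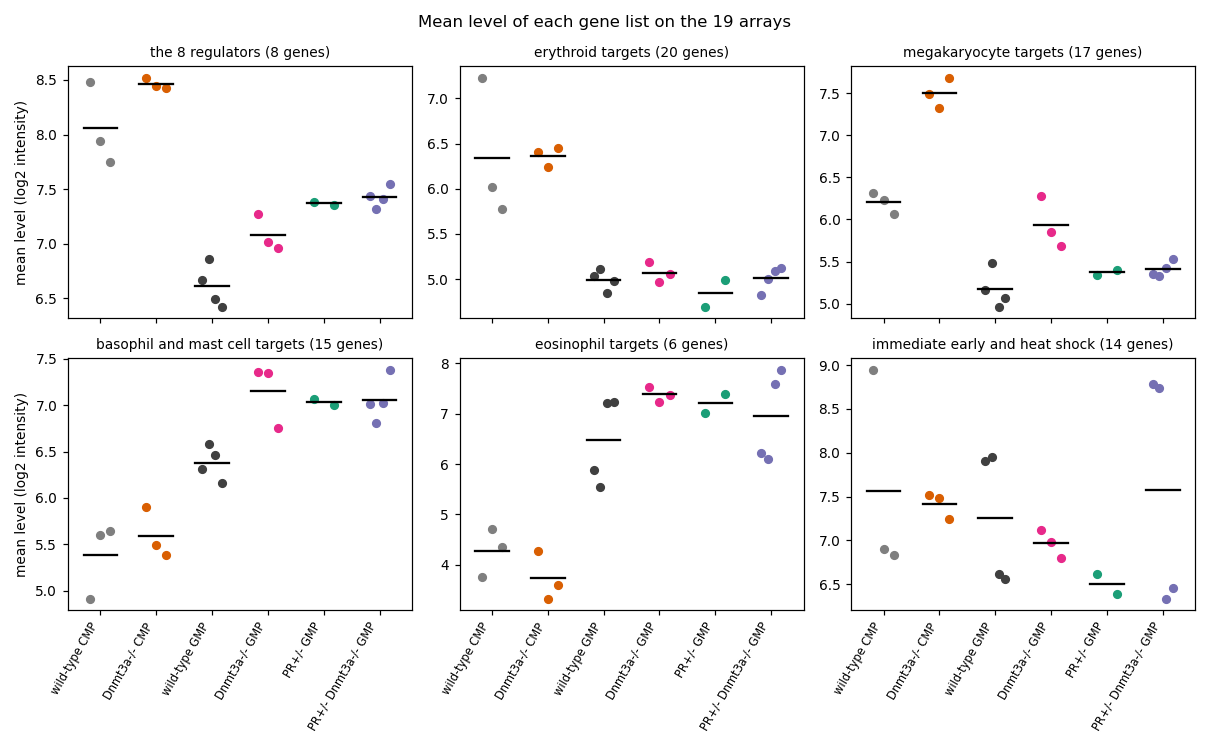
Mean level (vertical axis, log2 intensity, with its own range in each panel) of the 8 regulators and of 5 lists of other genes on each of the 19 arrays (points), with group means (bars). Within each of the wild-type and Dnmt3a-/- genotypes the regulators, erythroid and megakaryocyte genes were lower in GMP than in CMP and the eosinophil and basophil genes higher, and the immediate early panel shows the arrays that stand apart, such as wild-type CMP replicate 1 at 8.95.

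Loss of Dnmt3a went with higher Gata1 and Gata2 in GMP, each by over 2-fold, and no member passed as lower. Against wild type, 2 of the 8 passed in GMP and none in CMP, while 3 passed when both cell types were averaged (Gata1, Gata2 and Nfe2). Of all genes, 1.33% passed in GMP and 0.9% as higher. In CMP it was 1.28%, with 202 genes by limma, and 13.7% had an unadjusted p under 0.05, among them Gata1, Gata2, Zfpm1 and Nfe2. For the average it was 5.75%, and 3.54% as higher. Klf1, the erythroid factor, differed by 0.11 in CMP and 0.09 in GMP and did not pass in either. Its means in Dnmt3a-/- and wild-type GMP (4.87 and 4.78) lay within the range of the genes of other tissues (1.92 to 5.25), which limits that comparison.

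Gata1 in GMP was 6.39, 6.09 and 6.16 without Dnmt3a, above all 4 wild-type arrays (highest 5.42). The difference was 1.11 ± 0.24 (2.16-fold, adjusted p = 0.0386). All wild-type arrays but replicate 1 lay within the range of the genes of other tissues for Gata1, so the size of this difference is uncertain. Gata2 in GMP was 8.67, 8.55 and 7.998 without Dnmt3a, against 7.96 on the highest wild-type array, so the groups were apart by a narrow margin. The difference was 1.12 ± 0.24 (2.18-fold, adjusted p = 0.0390). Both lie close to the threshold. Both calls were lost with the median of the probe sets and with quantile normalization (adjusted p = 0.0599 to 0.126), though the differences stayed between 0.95 and 1.09. The brighter probe sets ended the Gata1 call (0.0903), and those groups alone (0.115) or the Y-linked level as a covariate (0.0614) the Gata2 call; all 3 Dnmt3a-/- and 1 of the 4 wild-type GMP arrays were Y-low. Gata1 no longer passed without wild-type replicate 2, 3 or 4 or any Dnmt3a-/- replicate (adjusted p = 0.0619 to 0.179), and Gata2 without Dnmt3a-/- replicate 1 or 2 or wild-type replicate 1, 3 or 4 (0.0693 to 0.194).

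Nfe2 was also apart in GMP, with 8.87, 8.70 and 9.01 against 8.41 to 8.63, but the difference of 0.34 ± 0.11 did not pass (adjusted p = 0.159). In GMP 7.88% of all genes were apart in this direction. Tal1, at 6.97, 6.81 and 7.37, Gfi1b, at 6.59, 6.03 and 6.10, and Zfpm1, at 6.46, 6.08 and 6.10, overlapped with wild type. Their differences were 0.41 ± 0.17, 0.45 ± 0.33 and 0.35 ± 0.16, and none passed (adjusted p = 0.225, 0.471 and 0.266). Klf1 differed by 0.09 ± 0.40 (adjusted p = 0.916) and Lmo2 by -0.10 ± 0.12 (adjusted p = 0.657), and both overlapped.

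In CMP all 8 members had higher means without Dnmt3a, but none passed. Gata2 rose from 8.51 to 9.03 on the wild-type arrays to 9.42 to 9.54, and the groups were apart, at 0.74 ± 0.26 (adjusted p = 0.215). Zfpm1 (0.51 ± 0.17, adjusted p = 0.204) and Nfe2 (0.43 ± 0.12, adjusted p = 0.126) were apart as well, and 10.1% of all genes were apart as higher. The other 5 overlapped, with differences from 0.11 for Klf1 to 0.63 for Gata1. Without the wild-type arrays titled 21986 to 21988, which carry the high immediate early level, Gata2 (0.88, adjusted p = 0.042), Zfpm1 (0.64, 0.0432) and Gfi1b (0.94, 0.0337) passed. With array weights Gata2, Zfpm1 and Nfe2 passed (adjusted p = 0.0153 to 0.02).

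Averaged over CMP and GMP, Gata2 was higher without Dnmt3a by 0.93 ± 0.18 (1.90-fold, adjusted p = 0.0106), Gata1 by 0.87 ± 0.17 (1.83-fold, adjusted p = 0.0135) and Nfe2 by 0.38 ± 0.08 (1.30-fold, adjusted p = 0.0223). Zfpm1 lay just outside the threshold at 0.43 ± 0.12 (adjusted p = 0.0525). The Nfe2 call was lost without wild-type CMP replicate 3, any Dnmt3a-/- CMP replicate or Dnmt3a-/- GMP replicate 1 (adjusted p = 0.0527 to 0.0586), and with the median of the probe sets (0.405), which also ended the Gata1 call (0.0635). Without wild-type CMP replicate 1, Zfpm1 (adjusted p = 0.0323) and Gfi1b (0.0194) passed too, and without wild-type GMP replicate 2 Zfpm1 did (0.0189). The difference of the Dnmt3a-/- effect between GMP and CMP did not pass for any member. It was largest for Gata1 (0.49 ± 0.35, adjusted p = 0.884), and near 0 for Klf1 (-0.02 ± 0.59) and Gfi1b (0.04 ± 0.48). No gene of the 15781 passed that test by limma, while 1083 (6.86%) had an unadjusted p under 0.05.

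Several megakaryocyte genes were higher without Dnmt3a. Of 17 megakaryocyte genes, 6 passed as higher in CMP, 3 in GMP and 12 in the average, and none as lower. Over all genes it was 1.28% in either direction in CMP, 0.9% as higher in GMP and 3.54% as higher in the average. The list medians were 1.38, 0.62 and 1.09. Selp, the platelet adhesion receptor P-selectin, rose by 1.86 ± 0.19 in CMP (adjusted p = 0.000563) and by 1.06 ± 0.18 in GMP (adjusted p = 0.014). Itga2b, a subunit of the platelet fibrinogen receptor, rose by 1.11 ± 0.19 in GMP (adjusted p = 0.015). The mean level of the list was 6.07 to 6.31 in wild-type CMP and 7.33 to 7.68 in Dnmt3a-/- CMP, and 4.96 to 5.48 and 5.68 to 6.27 in GMP, with no overlap in either. Of 20 erythroid genes none passed in CMP or in GMP, and 1 passed as higher in the average. In the basophil and mast cell list (15 genes), 2 were higher in Dnmt3a-/- GMP (Fcer1a, the IgE receptor, by 3.47 ± 0.43, adjusted p = 0.0022, and its partner chain Ms4a2) and 1 was lower (Il6st, a widely expressed cytokine receptor subunit). That list's mean level was 6.16 to 6.58 in wild-type and 6.75 to 7.36 in Dnmt3a-/- GMP. Of 16 stem and multipotent markers, 4 passed as higher without Dnmt3a in CMP and 1 in GMP, and none as lower. In the average 5 passed as higher and 1 as lower. The part of megakaryocyte, basophil or stem and multipotent cells in the Gata1 and Gata2 differences was not tested.

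**Figure D3:**
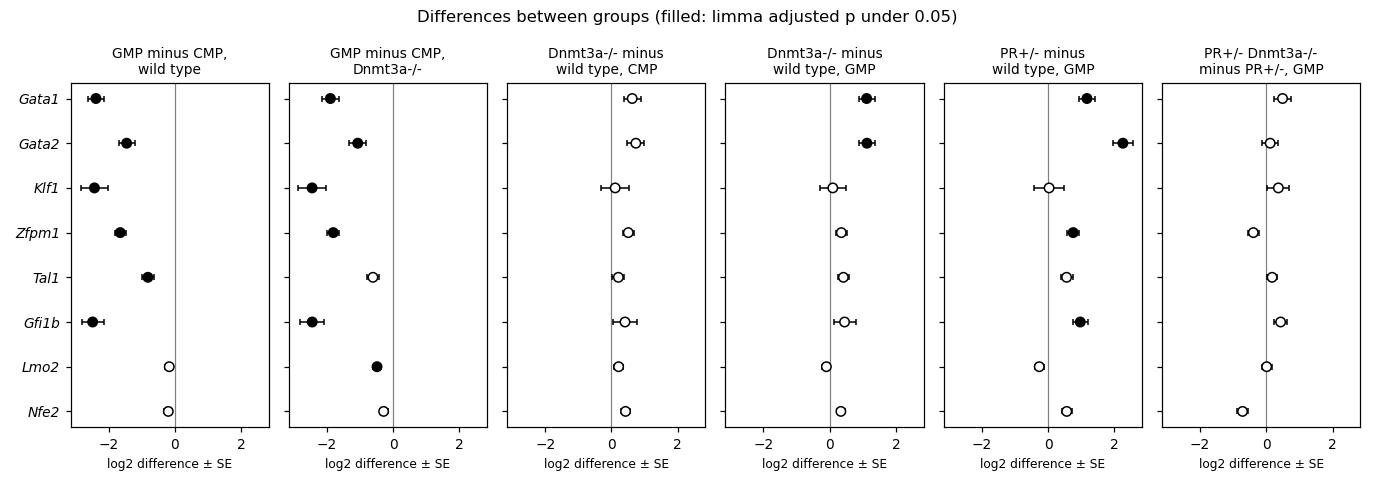
Log2 difference between groups (horizontal axis, with its SE) for each regulator in 6 comparisons; filled points have a limma adjusted p under 0.05. Gata1, Gata2, Klf1, Zfpm1 and Gfi1b are filled and left of 0 in both GMP minus CMP panels, and Gata2 in PR+/- minus wild type (2.26) is the point farthest right.

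GMP carrying PR+/- had more Gata2, Gata1, Gfi1b and Zfpm1 than wild-type GMP, while Klf1 did not pass. The Klf1 means in PR+/- and wild-type GMP (4.81 and 4.78) lay within the range of the genes of other tissues (1.92 to 5.25), which limits its comparison. Gata2 rose most, by 4.78-fold. These 4 of 8 members passed as higher and none as lower, against 3.07% of all genes passed and 2.19% passed as higher. Over all genes 345 were higher and 139 lower, or 270 and 204 after quantile normalization. The comparison uses the same wild-type GMP arrays as the Dnmt3a-/- comparison, so both share their controls.

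Gata2 was 9.78 and 9.30 on the PR+/- arrays, against 7.28, 7.96, 7.01 and 6.87 in wild-type GMP. The groups were far apart, at 2.26 ± 0.30 (adjusted p = 0.00169). Gata1 was 6.33 and 6.21, above all wild-type arrays, at 1.17 ± 0.23 (2.26-fold, adjusted p = 0.0156). Since Gata1 on all wild-type arrays but replicate 1 lay within the range of the genes of other tissues, the size is uncertain. Gfi1b was 6.72 and 6.81, against 5.45 to 6.19, at 0.97 ± 0.23 (1.96-fold, adjusted p = 0.0403). Zfpm1 was 6.68 and 6.57, against 5.69 to 6.23, at 0.76 ± 0.18 (1.69-fold, adjusted p = 0.0441). Of the 4, Gata2 and Gata1 also passed with the median of the probe sets, quantile normalization or those 2 groups alone, and Gfi1b and Zfpm1 did not (adjusted p = 0.073 to 0.158). All 4 passed without wild-type replicates 1 and 2, which had a high immediate early level.

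With only 2 PR+/- arrays these calls rest on both. Without PR+/- replicate 1, Gata2 had a difference of 2.02 (adjusted p = 0.0624) and no member passed; without replicate 2, Gata2 alone did. These fits take the spread of the single PR+/- array from the other groups. Without a wild-type array Gata2 and Gata1 passed each time, whereas Zfpm1 no longer passed without replicate 1, 3 or 4 (adjusted p = 0.08 to 0.0961) and Gfi1b without replicate 2, 3 or 4 (0.0572 to 0.0848). Tal1, with 7.20 on both arrays against 6.43 to 6.94, was apart but did not pass (0.56 ± 0.18, adjusted p = 0.124). Nfe2, with 9.14 and 9.05 against 8.41 to 8.63, was apart as well (0.56 ± 0.15, adjusted p = 0.0588). In this direction 16.1% of all genes were apart. Klf1, with 4.57 and 5.05, overlapped wild type at 0.03 ± 0.46 (adjusted p = 0.983). Lmo2, with 8.66 on both arrays, lay below all wild-type arrays by 0.26 ± 0.13 on average (adjusted p = 0.333), as did 12.3% of all genes.

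Beside Gata2, 5 of 15 basophil and mast cell genes rose in PR+/- GMP and 1 fell, against 2.19% of all genes passed as higher. Cpa3, a mast cell carboxypeptidase, rose by 3.70 ± 0.36 (adjusted p = 0.000231) and Hdc, which makes histamine, by 1.68 ± 0.18 (adjusted p = 0.000447). The mean level of that list was 7.07 and 7.01 on the PR+/- arrays, above the wild-type range of 6.16 to 6.58. The list median was -0.08, with 7 genes above 0 and 8 below. On the PR+/- arrays several genes of the list, with means from 3.40 up, lay below the median of the genes of other tissues (4.14). Of 17 megakaryocyte genes, 4 passed as higher (Itga2b by 2.30 ± 0.25, adjusted p = 0.000482, with Cd9, Itgb3 and P2ry1) and none as lower. The list median was 0.10, with 10 genes above 0 and 7 below. In all, 4 were apart as higher and 3 as lower, against 16.1% and 12.3% of all genes. Of 20 erythroid genes none passed, with a median of -0.18. Among the cofactors Lmo4, a relative of Lmo2, rose by 1.79 ± 0.22 (adjusted p = 0.001). The part of mast cell, basophil or megakaryocyte precursors in the Gata2 difference was not tested.

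On the Dnmt3a-/- background PR+/- went with higher Gata2 and Gfi1b. These 2 of 8 passed as higher and none as lower, against 1.24% of all genes passed and 0.678% as higher. Gata2 was 9.85, 9.60, 9.24 and 9.94 in PR+/- Dnmt3a-/- GMP against 8.67, 8.55 and 7.998 in Dnmt3a-/- GMP. The groups were apart, as were 8.06% of all genes in this direction, at 1.25 ± 0.27 (2.38-fold, adjusted p = 0.0395). Gfi1b was 7.51, 7.28, 6.90 and 7.09 against 6.59, 6.03 and 6.10, also apart, at 0.96 ± 0.20 (1.94-fold, adjusted p = 0.0395). Both calls were lost without any array of the 2 groups other than PR+/- Dnmt3a-/- replicate 3 (adjusted p = 0.0506 to 0.179), and without replicates 1 and 2, which had a high immediate early level (0.127 and 0.161). Both were also lost with the median of the probe sets, the brighter probe sets, those groups alone or the Y-linked level as a covariate (adjusted p = 0.0546 to 0.39); all 3 Dnmt3a-/- GMP arrays and 1 of the 4 PR+/- Dnmt3a-/- arrays were Y-low, and the part of sex was not tested further. Nfe2 went down, with 8.21, 8.34, 8.54 and 8.41 against 8.87, 8.70 and 9.01, and the groups were apart, but the difference of -0.49 ± 0.13 did not pass (adjusted p = 0.103). Lmo2 also lay lower without overlap (-0.15 ± 0.12, adjusted p = 0.569), as did 6.69% of all genes. Of the other lists, no erythroid gene passed, 1 megakaryocyte gene was lower (Pf4, platelet factor 4, by 3.73 ± 0.64, adjusted p = 0.0137), and Prss34 of the basophil list fell by 3.78 ± 0.24 (adjusted p = 7.64e-06) while Cpa3, Hdc and Il4 rose.

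Between PR+/- Dnmt3a-/- and PR+/- GMP no member passed, nor did any of the 15781 genes by limma, although 1256 (7.96%) had an unadjusted p under 0.05. Gata2 overlapped, with 9.78 and 9.30 in PR+/- and 9.24 to 9.94 without Dnmt3a, at 0.12 ± 0.24 (adjusted p = 0.903). Gata1 was 6.73, 6.22, 6.93 and 7.17 without Dnmt3a against 6.33 and 6.21, and overlapped too (0.49 ± 0.26, adjusted p = 0.653). Nfe2 differed most clearly. All 4 PR+/- Dnmt3a-/- arrays (8.21 to 8.54) lay below both PR+/- arrays (9.14 and 9.05), at -0.72 ± 0.16 (unadjusted p = 0.00237, adjusted p = 0.478). In a fit of all 19 arrays this difference passed (adjusted p = 0.0361). Zfpm1 was also apart as lower (6.07 to 6.37 against 6.68 and 6.57; -0.39 ± 0.16, adjusted p = 0.62), and Gfi1b (0.43 ± 0.20, adjusted p = 0.63) and Tal1 (0.17 ± 0.15, adjusted p = 0.746) as higher. Of all genes 12.3% were apart as lower and 8.28% as higher, with 2 arrays against 4.

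The Dnmt3a-/- effect on Nfe2 differed in sign between the backgrounds. It was 0.34 ± 0.11 without PR and -0.72 ± 0.16 with PR+/-, and the difference of the effects was -1.05 ± 0.20 (unadjusted p = 0.000133, adjusted p = 0.118). It passed in the fit of all 19 arrays (adjusted p = 0.0323). Of all genes 5, or 0.0317%, passed this test, and no member was among them, while 14% had an unadjusted p under 0.05. Zfpm1 also changed sign, from 0.35 ± 0.16 without PR to -0.39 ± 0.16 with PR+/-, and the difference of -0.74 ± 0.25 did not pass (adjusted p = 0.245). Gata2 went from 1.12 without PR to 0.12 with PR+/-, a difference of -1.01 ± 0.40 that did not pass either (adjusted p = 0.302).

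Ordered by mean level, Gata1 was highest in Dnmt3a-/- CMP (8.11), then wild-type CMP (7.48), PR+/- Dnmt3a-/- GMP (6.76), PR+/- GMP (6.27), Dnmt3a-/- GMP (6.21) and wild-type GMP (5.10). Each neighbouring pair in this order overlapped except the last, which was wild-type GMP against Dnmt3a-/- GMP. Gata2 had another order, with PR+/- Dnmt3a-/- GMP (9.66), PR+/- GMP (9.54) and Dnmt3a-/- CMP (9.47) overlapping at the top. Wild-type CMP (8.74) and Dnmt3a-/- GMP (8.40) overlapped below them, and wild-type GMP (7.28) stood apart at the bottom. The arrays of both PR+/- GMP groups (9.24 to 9.94) all lay above the wild-type CMP arrays (8.51 to 9.03).

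Klf1 fell into an upper pair, Dnmt3a-/- CMP (7.32) and wild-type CMP (7.20), and a lower set of all 4 GMP groups (4.78 to 5.17). Within each the arrays overlapped. Gfi1b had the CMP groups on top (8.68 and 8.27, overlapping), then PR+/- Dnmt3a-/- GMP (7.20), PR+/- GMP (6.76) and, overlapping with each other, Dnmt3a-/- GMP (6.24) and wild-type GMP (5.79). Zfpm1 followed Dnmt3a-/- CMP (8.02), wild-type CMP (7.51) and PR+/- GMP (6.62), each apart from the next, with the other 3 GMP groups (5.86 to 6.23) overlapping in that order. Tal1, Lmo2 and Nfe2 spanned 1.02, 0.65 and 0.78 between their highest and lowest group means, against 2.16 to 3.01 for the other members. For Tal1 both CMP groups (7.66 without Dnmt3a, 7.45 in wild type) and PR+/- Dnmt3a-/- GMP (7.37) overlapped in turn, and PR+/- GMP (7.20), Dnmt3a-/- GMP (7.05) and wild-type GMP (6.64) followed with overlaps of their own, PR+/- GMP lying apart from PR+/- Dnmt3a-/- GMP. For Lmo2 the order ran from Dnmt3a-/- CMP (9.31) through wild-type CMP (9.09) and GMP (8.92) to Dnmt3a-/- GMP (8.82), each overlapping with the next, and both PR+/- groups (8.67 and 8.66) stood apart at the bottom. Nfe2 was highest in Dnmt3a-/- CMP (9.15), which overlapped with PR+/- GMP (9.09). Below a gap came Dnmt3a-/- GMP (8.86) and wild-type CMP (8.73), and below another wild-type GMP (8.53) and, lowest, PR+/- Dnmt3a-/- GMP (8.37), each pair overlapping.

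The single probe sets bear on how even these differences were along each gene. Of the 74, 69 were lower in wild-type GMP than CMP and 43 of them had all GMP arrays below all CMP arrays, against 4.2% of all probe sets. For PR+/- against wild-type GMP 63 were above 0 and 32 were apart as higher (11.4% of all probe sets), and 10 of the 11 Gata2 probe sets were among these. For Dnmt3a-/- against wild-type GMP 55 were above 0 and 17 were apart as higher (5.1% of all). Gata1 and Gata2 were above 0 at all 8 and all 11 of their probe sets in this comparison, with 4 and 6 apart. All 5 Nfe2 probe sets were lower in PR+/- Dnmt3a-/- than in PR+/- GMP and 4 of them were apart (8.7% of all).

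The brightest probe set of Gata1 read 4.24, 6.23, 5.08 and 4.35 in wild-type GMP and 8.35, 7.37 and 7.24 in Dnmt3a-/- GMP, with no overlap. In PR+/- GMP it read 7.85 and 8.49. Its wild-type readings other than 6.23 lay within the range of the genes of other tissues. The size of its difference between Dnmt3a-/- and wild-type GMP, the largest of the Gata1 probe sets, is thus uncertain. The brightest probe set of Klf1 read 1.88, 5.38, 4.01 and 2.38 in wild-type GMP and 6.52, 6.44 and 5.59 in Dnmt3a-/- GMP. It was thus higher on all 3 Dnmt3a-/- arrays, but 3 of the 4 wild-type readings lie no higher than the genes of other tissues, so the size of the difference is not given. Of the 6 Klf1 probe sets 4 were lower without Dnmt3a. The exons that these probe sets cover were not used here, and neither probe set was tested on its own.

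**Figure D4:**
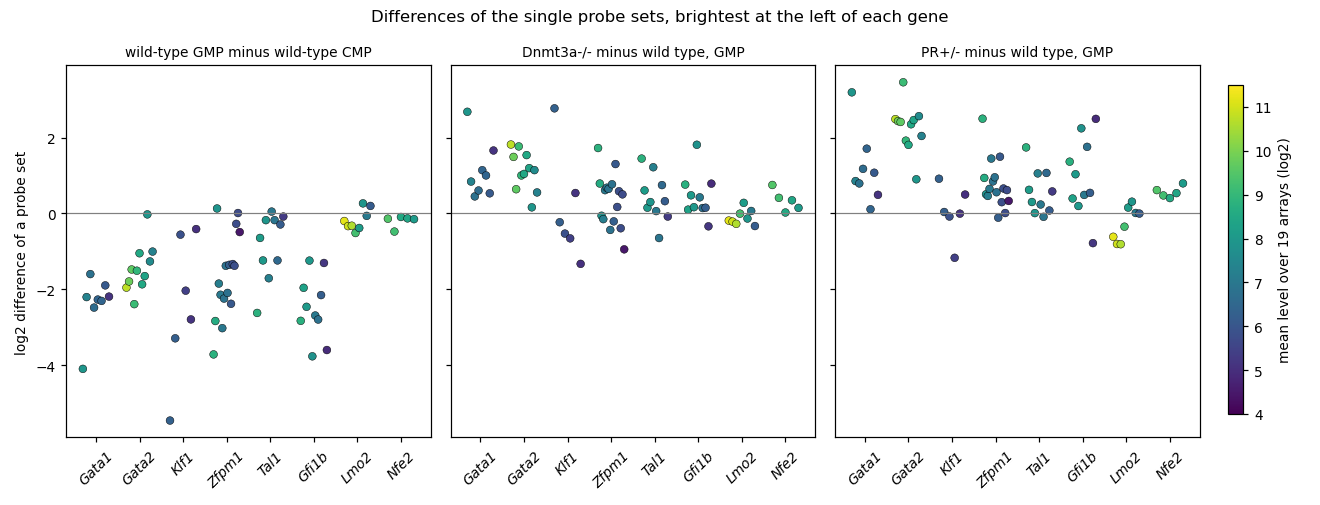
Log2 difference of each of the 74 probe sets (vertical axis) in 3 comparisons, ordered within each gene from the brightest at the left and coloured by mean level over the 19 arrays. In PR+/- minus wild-type GMP all 11 Gata2 points lie above 0 (0.90 to 3.46), and in Dnmt3a-/- minus wild-type GMP the brightest Klf1 probe set is above 0, with wild-type readings near background, while 4 others lie below 0.

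Across the 19 arrays the members did not all follow each other. Gata1 and Gfi1b had the highest correlation (r = 0.93), and r was 0.49 for their deviations from the group means, which leaves out the differences between groups. Gata2 and Lmo2 had the lowest r over the 19 arrays (-0.04), but 0.55 for the deviations. The highest r for the deviations was between Gata2 and Zfpm1 (0.81), followed by Gfi1b and Lmo2 (0.79). Points share their groups and their array, so these values are descriptive. Of genes outside the 8, Tgfbr3 was most like Gfi1b (r = 0.97), Vamp5 most like Gata1 (0.96), Slc18a2 most like Gata2 (0.94), Septin8 most like Klf1 (0.95), followed by the erythroid genes Kel and Epor (both 0.94). Phc1 was most like Zfpm1 (0.97), Mc5r most like Tal1 (0.89), Agpat3 most like Lmo2 (0.96) and Psmd11 most like Nfe2 (0.88). To the mean of all 8, Gfi1b and Gata1 were closest among the members (both 0.97) and Nfe2 least close (0.50), and Tgfbr3 was closest among the other genes (0.98).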

How the data were processed

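Total RNA of sorted CMP and GMP was amplified from 20 ng and hybridised to exon arrays, per the labels' protocols. The authors deposited linear intensity per probe set (1.34 to 16208, array medians 53.0 to 56.8). Partek, RMA and the build mm9 are named without role or version, per the submitters' processing notes. The step that selected these probe sets was not stated. Of 194293 probe sets, 179496 name 1 gene, 1328 several and 13469 none; the latter 2 kinds were left out. Symbols were brought to the RefSeq GRCm38.p6 gene table, used for names only (13727 as annotated, 2039 updated, 37 kept without a match).

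Intensities were taken to log2 with no further normalization and averaged per gene, giving 15781 genes. Differences were fitted with limma 3.58.1 in R 4.3.3 (lmFit, eBayes), with Benjamini-Hochberg adjustment over all genes and a threshold of 0.05. Wild-type and Dnmt3a-/- comparisons used those 13 arrays, PR+/- Dnmt3a-/- against PR+/- those 6, and comparisons across PR status the 13 GMP arrays. The number of arrays, 2 to 4 a group, limits the precision. Scripts were tested on simulated data.

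All 8 members were named in each comparison; from each list up to 4 genes past the threshold with the largest change were open to naming, and up to 2 where none passed. For likeness, the 3 genes with the highest r to a member were open to naming. Members and lists were chosen with earlier results of these data known. Alternatives were the median or the brighter probe sets, quantile normalization, other arrays in the fit, array weights, a filter on dim genes, a Y-linked covariate, blocks, and leaving out arrays. PR+/- and PR+/- Dnmt3a-/- arrays that share a replicate number had correlations of deviations of 0.0774 and 0.0169. The deviations of the 2 PR+/- arrays mirror each other, so these values cannot decide whether the numbers pair the arrays. No label states a pairing. Dnmt3a-/- CMP and GMP arrays of adjacent title numbers deviated together (0.121, 0.139 and 0.171, against -0.148 to 0.0305 for other pairs), though no label says that they share an animal.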

Additional observations from a re-analysis of the deposited data

Results flagged for a closer look

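The effect of Dnmt3a-/- on Nfe2 in GMP ran in opposite directions with and without PR+/-. All 3 Dnmt3a-/- arrays lay above all 4 wild-type arrays, whereas all 4 PR+/- Dnmt3a-/- arrays lay below both PR+/- arrays. Of all genes, 7.88% were apart as higher in the first comparison and 12.3% as lower in the second. Neither effect passed on its own (limma adjusted p = 0.159 and 0.478). The difference of the effects was -1.05 ± 0.20 on the log2 scale (limma adjusted p = 0.118 over all genes), so the test of the difference itself did not pass, and it did in the fit of all 19 arrays (adjusted p = 0.0323).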

How the results depend on the processing

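Of 1424 member values under the alternatives, 1236 kept their direction and side of the threshold, 90 kept the direction but no longer passed, 34 newly passed and 64 changed sign, of which 35 left out 1 array; no value that changed sign had an adjusted p under 0.7008. Numbers of members passed moved as follows. For Dnmt3a-/- against wild-type GMP (2) it was 0 with the median of the probe sets or quantile normalization, 1 with the brighter probe sets, the compared groups alone or the Y-linked covariate, and 0 to 1 leaving out 1 array. In CMP (0) it was 3 with array weights and 3 without the arrays titled 21986 to 21988, and 0 without any 1 array. For the average (3) it was 1 with the median, 5 with array weights, 5 without the arrays titled 21986 to 21988, and 2 to 5 leaving out 1 array. For PR+/- against wild type (4) it was 2 with the median, the compared groups alone, quantile normalization or the Y-linked covariate, 5 without dim genes (with Nfe2), 6 with array weights (with Nfe2 and Tal1), and 0 to 3 leaving out 1 array. For PR+/- Dnmt3a-/- against Dnmt3a-/- (2) it was 0 with the median, the brighter probe sets, the compared groups alone, the Y-linked covariate or without arrays of high immediate early level, 1 with quantile normalization, 3 with array weights (with Gata1), and 0 to 2 leaving out 1 array. Leaving out the arrays of high immediate early level was chosen after seeing the data. For PR+/- Dnmt3a-/- against PR+/- and for the difference of the Dnmt3a-/- effect between PR+/- and PR-negative GMP (both 0) it was 1 (Nfe2) with all 19 arrays. GMP against CMP (6 each) gave 5 to 6 in wild type and 4 to 5 in Dnmt3a-/- leaving out 1 array, and 5 to 6 and 4 to 8 under the other alternatives, with 8 in Dnmt3a-/- for quantile normalization and array weights. The causes were not tested.

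The replicate block on the PR+/- numbers, for which no label states a pairing, left 0 members passed in both comparisons within PR+/-. It turned Klf1 to -0.080 (fixed block) and the Gfi1b difference of effects to 0.0016 (random block). The block on adjacent Dnmt3a-/- title numbers changed 1 member call, Tal1 from Dnmt3a-/- CMP to GMP (adjusted p = 0.0274). For PR+/- Dnmt3a-/- against PR+/- the compared groups alone are the fit reported.

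Signs turned as follows, each for a member that did not pass. For Klf1, Dnmt3a-/- against wild type became -0.096 in CMP, -0.12 in GMP and -0.11 in the average with the median, PR+/- against wild type -0.23 with the median and -0.094 with the Y-linked covariate, and PR+/- Dnmt3a-/- against Dnmt3a-/- -0.21 with that covariate. Its difference of effects between GMP and CMP became 0.62 (brighter probe sets), 0.052 (quantile), 0.041 (array weights) and 0.028 (covariate), and that between PR+/- and PR-negative GMP -0.056 (brighter) and -0.12 (covariate). For Lmo2, Dnmt3a-/- against wild type became 0.038 in GMP (median), and -0.0021 (brighter) and -0.045 (quantile) in the average. Its PR+/- Dnmt3a-/- against PR+/- value became -0.18 (median), -0.011 (array weights) and -0.054 (without arrays of high immediate early level), and its PR difference of effects -0.21 (median) and -0.040 (without those arrays). For Tal1 the difference between GMP and CMP became -0.024 (median) and -0.0051 (array weights), and for Gfi1b -0.37 (array weights) and -0.25 (without the arrays titled 21986 to 21988), with 0.099 for its PR difference (quantile). Zfpm1 in PR+/- Dnmt3a-/- against Dnmt3a-/- became -0.12 (median) and -0.0086 (covariate). Kdm5d, a gene of the covariate itself, became 0.099 in the average.

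Values of both signs when 1 array was left out spanned, for Klf1, -0.12 to 0.49 (Dnmt3a-/- in CMP), -0.19 to 0.45 (Dnmt3a-/- in GMP), -0.037 to 0.29 (the Dnmt3a-/- average), -0.40 to 0.34 (GMP against CMP effects), -0.21 to 0.38 (PR+/- against wild type), -0.055 to 0.58 (PR+/- Dnmt3a-/- against Dnmt3a-/-), -0.087 to 0.55 (the PR difference of effects). Likewise they spanned -0.49 to 0.34 (GMP against CMP effects) and -0.15 to 0.16 (the PR difference of effects) for Gfi1b, -0.12 to 0.35 (PR+/- Dnmt3a-/- against PR+/-) for Gata2, -0.023 to 0.050 (PR+/- Dnmt3a-/- against PR+/-) for Lmo2, -0.049 to 0.14 (PR+/- Dnmt3a-/- against Dnmt3a-/-) for Zfpm1.

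Over all genes the numbers passed ranged from 61 to 1064 for Dnmt3a-/- in CMP (202), 48 to 1733 in GMP (210), 139 to 3248 for the average (907), 258 to 825 for GMP against CMP in wild type (678), 968 to 3853 in Dnmt3a-/- (1590), 43 to 1045 for PR+/- against wild type (484), 11 to 935 for PR+/- Dnmt3a-/- against Dnmt3a-/- (195), 0 to 21 for PR+/- Dnmt3a-/- against PR+/- (0), 0 to 48 for the difference between GMP and CMP (0) and 0 to 40 for the PR difference (5). Signal over background limits Klf1 in GMP and several probe sets of Gata1 in wild-type GMP.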

Other observations

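The eosinophil genes, which Gata1 can drive, had lower mean levels on GMP arrays of high immediate early level than on the other arrays of those groups. They were 5.89 and 5.55 against 7.21 and 7.24 in wild type, and 6.22 and 6.11 against 7.59 and 7.87 in PR+/- Dnmt3a-/-. Gata1 was 5.42 and 5.05 against 5.02 and 4.91 in wild type, and 6.73 and 6.22 against 6.93 and 7.17 in PR+/- Dnmt3a-/-. The split was chosen after seeing the data and was not tested. In wild type the arrays of high level are also those titled 21986 and 21988.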
